A study of Mus musculus with 12 samples.

Results

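The genes described are 5 ephrin-A ligands (Efna1, Efna2, Efna3, Efna4 and Efna5) and 5 EphA receptors (Epha3, Epha4, Epha5, Epha7 and Epha8) of the mouse main olfactory epithelium (MOE), the tissue of the nose that detects odors. They are 10 of 19938 genes that had a probe set with a symbol of their own, on an array of 35556 probe sets, and were taken by name. Each of the 10 had 1 such probe set, and all 10 lay among the 32615 probe sets whose mean log2 value over the arrays was above 5, the level below which probe sets were left out. In unilateral naris occlusion (UNO), 1 nostril is sealed so that the epithelium behind it receives no odor-carrying airflow while the opposite side stays open. The right nostril was sealed by electrocautery at 2 weeks of age, and the MOE of each side was collected 3 weeks later from mice aged 5 weeks. The 4 groups were the closed and the open side of H2be-KO mice and the closed and the open side of wild-type (WT) mice, with 3 arrays each. H2be encodes an olfactory variant of histone H2B, and in the KO its coding sequence is replaced by one for a membrane-targeted mCherry fusion in every cell of the animal. Each sample pooled mice, 1 female and 1 male according to the series' description, so single animals cannot be seen. The sources conflict on 2 points: the paper's legends give more mice per sample, and an age tag of the samples gives an older age than their titles. The mice of all groups, WT included, had undergone the closure, and no mouse without surgery was measured.

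Ephrin-As are ligands held on the cell surface by a lipid (GPI) anchor, and EphA receptors are receptor tyrosine kinases that bind them on contact with another cell. Contact often leads to repulsion of the growing axon, which sorts axons in several maps of the nervous system. Olfactory sensory neurons send axons to glomeruli of the olfactory bulb, and in mouse the axons of different olfactory receptors carry different amounts of ephrin-A and EphA proteins. Efna5 and Epha5 are known for levels that oppose each other between such neurons, with Efna5 low where Epha5 is high, and neuronal activity is known to influence both.

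Values are log2 intensities of a probe set, so a difference of 1 is a 2-fold change. Levels of different genes are not comparable because probe sets differ in how strongly they bind. A gene was called higher or lower where its p, from a linear model fitted with limma to all 32615 probe sets and adjusted by Benjamini-Hochberg, was under 0.05. These p-values measure the spread between the pooled samples of a group. In whole tissue, fewer cells of a type and less RNA per cell cannot be told apart. Array medians lay between 7.21 and 7.30, and the correlation between arrays was 0.965 to 0.978 within a group and 0.963 to 0.977 between groups. H2be itself read 11.41 to 11.46 in KO closed, 11.31 to 11.33 in KO open, 11.68 to 11.75 in WT closed and 11.55 to 11.62 in WT open arrays. On either side the KO arrays all read lower than the WT arrays, but the difference did not pass on the closed side (log2 change -0.27, adjusted p = 0.999, limma) or the open side (-0.26, adjusted p = 0.641, limma). Where its probes lie relative to the replaced sequence is not given in the sources used here.

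On the closed side, 2 of the 5 ligands were higher and 2 of the 5 receptors were lower than on the open side, in KO and in WT mice. Efna5 and Efna3 were the ligands that rose, and Epha5 and Epha7 were the receptors that fell. No ligand was called lower and no receptor was called higher. Of all probe sets tested, 0.705% were called higher and 0.34% lower on the closed side in the KO, and 0.475% were called higher and 0.38% lower in the WT. The other 6 genes were not called in either genotype, 1 of which, Efna4, reached an unadjusted p under 0.05 in each. Averaged over the genotypes, 3 ligands were higher and 2 receptors lower, against 1.66% of all probe sets higher and 1.23% lower. These genes and their direction were known from earlier results of the same arrays when they were chosen.

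Efna5, a ligand that repels axons bearing EphA receptors, doubled on the closed side in both genotypes. Its log2 levels were 10.34, 10.36 and 10.23 in KO closed arrays, against 9.34, 9.26 and 9.30 in KO open arrays. In the WT they were 10.29, 10.36 and 10.23 on the closed side, against 9.35, 9.34 and 9.28 on the open side. The 6 closed arrays stood clear of the 6 open arrays, with no overlap and little spread within any group. The change was 1.01 in the KO (SE 0.08, 2.01-fold, adjusted p = 0.000153, limma) and 0.98 in the WT (SE 0.08, 1.97-fold, adjusted p = 0.000177, limma). The mean levels fell into a high pair, KO closed 10.31 ± 0.07 and WT closed 10.30 ± 0.06, and a low pair, KO open 9.30 ± 0.04 and WT open 9.32 ± 0.04 (SD, n = 3 each). Neighbours within each pair did not differ beyond their spread.

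Efna3, the ligand whose product is also carried on olfactory axons, rose by a smaller amount. Its log2 levels were 10.86, 10.85 and 10.86 in KO closed arrays, against 10.16, 10.30 and 10.22 in KO open arrays. WT closed arrays had 10.78, 10.83 and 10.78, against 10.15, 10.25 and 10.11 in WT open arrays. Again no closed array fell within the range of the open arrays. The change was 0.63 in the KO (SE 0.08, 1.55-fold, adjusted p = 0.00234, limma) and 0.62 in the WT (SE 0.08, 1.54-fold, adjusted p = 0.00307, limma). Group means were 10.86 ± 0.0057 in KO closed, 10.23 ± 0.07 in KO open, 10.79 ± 0.03 in WT closed and 10.17 ± 0.07 in WT open arrays (SD, n = 3 each).

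Efna4, which lies beside Efna3 on chromosome 3, moved in the same direction but did not pass in either genotype alone. KO closed arrays had 7.46, 7.49 and 7.66, against 6.98, 7.12 and 7.23 in KO open arrays. WT closed arrays had 7.66, 7.61 and 7.57, against 7.07, 7.07 and 7.42 in WT open arrays. Within each genotype the closed and open arrays did not overlap, and the open arrays were the more widely spread. The share of all probe sets without such overlap was not counted, so the lack of overlap is a description only. The change was 0.42 in the KO (SE 0.11, adjusted p = 0.141, limma) and 0.43 in the WT (SE 0.11, adjusted p = 0.142, limma). Averaged over the genotypes it was 0.43 (SE 0.08, 1.34-fold) and passed (adjusted p = 0.0132, limma).

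The remaining ligands gave overlapping groups. Efna1, the third ligand gene of the chromosome 3 cluster, ranged from 6.45 to 6.94 in KO closed and from 6.71 to 6.98 in KO open arrays, a change of -0.10 (95% interval -0.44 to 0.25). In the WT it ranged from 6.71 to 7.08 on the closed side and from 6.61 to 6.94 on the open side, a change of 0.11 (-0.24 to 0.46). The 2 signs of this gene were not told apart by the test. Efna2 changed by 0.06 in the KO (-0.34 to 0.45) and by 0.13 in the WT (-0.27 to 0.52). These intervals include 0, and the widest reaches 0.52, so the test does not show that the levels were equal.

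**Figure D1:**
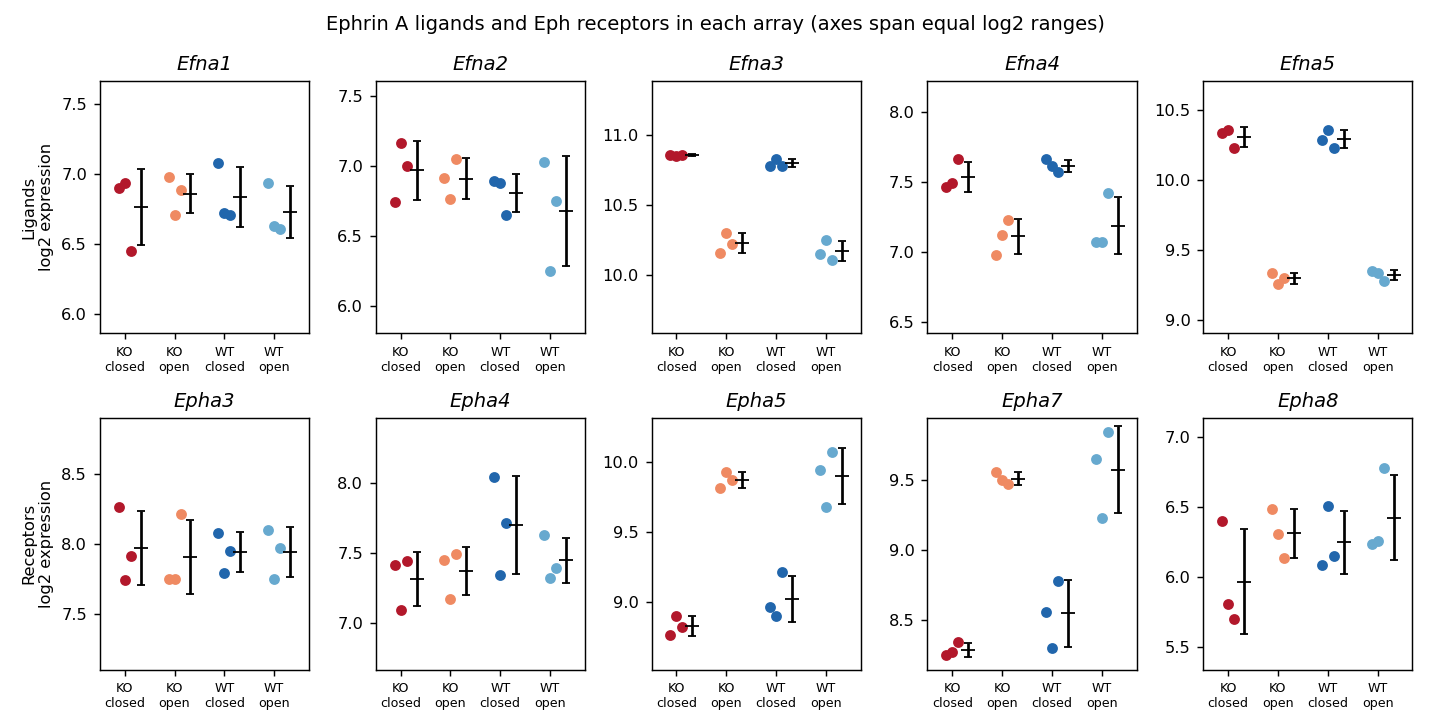
Log2 level (vertical axis) of each of the 10 genes in every array, with ligands in the upper row and receptors in the lower row, and groups in the order KO closed, KO open, WT closed, WT open. Points are arrays, bars show the mean ± SD (n = 3), and every panel spans the same log2 range: Efna5 and Efna3 stand higher on the closed side, from 10.23 to 10.36 and from 10.78 to 10.86, and Epha5 and Epha7 stand lower.

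Epha7, a receptor tyrosine kinase that binds several ephrin-As, showed the largest change of the 10 genes. Its log2 levels were 8.25, 8.27 and 8.34 in KO closed arrays, against 9.56, 9.50 and 9.47 in KO open arrays. In the WT they were 8.56, 8.30 and 8.78 on the closed side, against 9.65, 9.23 and 9.84 on the open side. Every closed array was below every open array, and the WT arrays were spread more widely than the KO arrays on both sides. The change was -1.22 in the KO (SE 0.15, 2.33-fold lower, adjusted p = 0.00253, limma) and -1.02 in the WT (SE 0.15, 2.03-fold lower, adjusted p = 0.00973, limma). Without the WT open replicate 1, the WT change was -0.99 and no longer passed (adjusted p = 0.0557, limma).

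Epha5, the receptor known to oppose Efna5 between olfactory neurons, was likewise lower on the closed side. Its log2 levels were 8.76, 8.90 and 8.82 in KO closed arrays, against 9.81, 9.93 and 9.87 in KO open arrays. WT closed arrays had 8.96, 8.90 and 9.21, against 9.94, 9.68 and 10.07 in WT open arrays. The ranges of the sides were separated by more than the spread of any group. The change was -1.04 in the KO (SE 0.12, 2.06-fold lower, adjusted p = 0.00138, limma) and -0.87 in the WT (SE 0.12, 1.83-fold lower, adjusted p = 0.00470, limma). For both receptors the means were ordered KO closed, WT closed, KO open, WT open from low to high (8.29, 8.55, 9.51 and 9.57 for Epha7, and 8.83, 9.02, 9.87 and 9.89 for Epha5), and KO and WT did not differ by the test on either side.

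When the WT was fitted with its 6 arrays alone, so that its spread was estimated without the KO arrays, 36 probe sets were called in place of 279, and of these genes only Efna5 passed. Efna3 (adjusted p = 0.0977, limma), Epha5 (adjusted p = 0.116, limma) and Epha7 (adjusted p = 0.176, limma) then did not. In the same fit of the 6 KO arrays, all 4 genes passed.

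**Figure D2:**
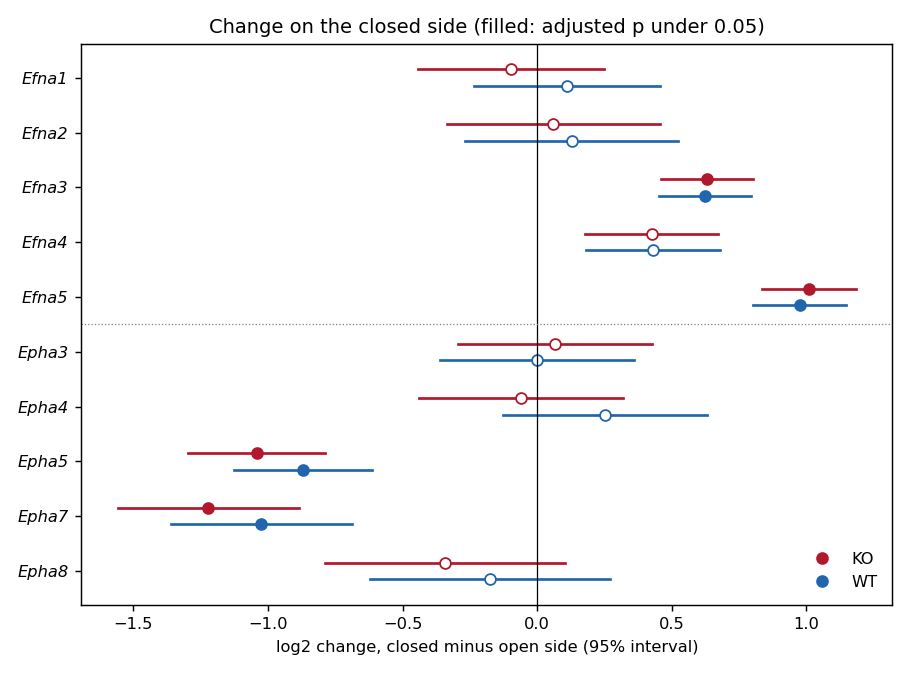
Log2 change of the closed minus the open side for each gene (horizontal axis), KO above WT, with 95% intervals from the limma model. Filled points passed the test: Efna5 and Efna3 lie to the right of 0 and Epha5 and Epha7 to the left in both genotypes, while the intervals of Efna1, Efna2, Epha3, Epha4 and Epha8 cross 0. The points of Efna4 are open because its adjusted p did not pass, although its intervals lie above 0 in both genotypes.

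None of the other 3 receptors was called. Epha8 ranged from 5.70 to 6.40 in KO closed and from 6.14 to 6.49 in KO open arrays, and its change was -0.34 (SE 0.20, adjusted p = 0.634, limma). In WT arrays it ranged from 6.09 to 6.51 on the closed side and from 6.24 to 6.78 on the open side, and its change was -0.18 (SE 0.20, adjusted p = 0.904, limma). Its standard error was the largest of the 10 genes, and its closed and open arrays overlapped in both genotypes. Epha3 changed by 0.07 in the KO (95% interval -0.29 to 0.43) and by 0.00 in the WT (-0.36 to 0.36). Epha4, a receptor that binds both ephrin-A and ephrin-B ligands, changed by -0.06 in the KO (-0.44 to 0.32) and by 0.25 in the WT (-0.13 to 0.63). The closed and open arrays of Epha3 and of Epha4 overlapped in both genotypes.

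The 300 bases around the start of the 4 genes that passed in both genotypes are shown because these genes moved together, the ligands upward and the receptors downward. They are RefSeq sequences of the mouse build GRCm38.p6, each from 250 bases before to 50 bases after the start, read 5′ to 3′ along the gene, and capitals mark TAATTA, the core that many homeodomain proteins bind. Efna5 lies at chr17:62881268-62881567 and Efna3 at chr3:89322890-89323189, both on the minus strand. Epha5 lies at chr5:84417333-84417632 on the minus strand and Epha7 at chr4:28812881-28813180 on the plus strand.
Efna5: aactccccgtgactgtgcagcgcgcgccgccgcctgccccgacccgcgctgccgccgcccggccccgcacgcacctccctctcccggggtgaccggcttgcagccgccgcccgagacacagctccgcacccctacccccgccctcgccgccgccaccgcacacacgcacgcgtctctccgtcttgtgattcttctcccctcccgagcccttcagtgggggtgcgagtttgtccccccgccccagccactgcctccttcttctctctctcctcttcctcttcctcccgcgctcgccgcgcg
Efna3: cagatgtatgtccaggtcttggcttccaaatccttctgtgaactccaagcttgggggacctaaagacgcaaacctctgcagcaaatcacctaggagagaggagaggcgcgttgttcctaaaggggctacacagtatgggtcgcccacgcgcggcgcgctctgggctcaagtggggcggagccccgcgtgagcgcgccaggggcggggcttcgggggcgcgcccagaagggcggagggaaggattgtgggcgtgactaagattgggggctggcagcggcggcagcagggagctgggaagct
Epha5: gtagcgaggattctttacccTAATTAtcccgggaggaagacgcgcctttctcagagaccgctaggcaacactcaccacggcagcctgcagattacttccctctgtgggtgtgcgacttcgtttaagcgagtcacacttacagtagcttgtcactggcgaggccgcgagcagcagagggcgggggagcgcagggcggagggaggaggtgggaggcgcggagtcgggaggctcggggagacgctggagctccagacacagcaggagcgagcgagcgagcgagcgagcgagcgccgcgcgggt
Epha7: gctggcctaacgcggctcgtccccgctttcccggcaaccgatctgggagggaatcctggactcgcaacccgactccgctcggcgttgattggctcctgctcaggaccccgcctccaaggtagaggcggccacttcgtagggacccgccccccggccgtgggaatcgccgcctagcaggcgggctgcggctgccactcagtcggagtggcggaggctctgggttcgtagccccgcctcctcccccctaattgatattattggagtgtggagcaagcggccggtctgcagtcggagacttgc
The Efna5 promoter held 38 CpG dinucleotides in 300 bases with 73.3% G and C. Efna3 had 22 CpG and 64% G and C, Epha5 had 30 and 64.3%, and Epha7 had 28 and 67%. All of them were above the median of 7 CpG over 32851 promoters of the same length, and so were the other 6 genes, with 11 to 56. TAATTA was found in the promoters of Epha5 and Efna1 and in none of the other 8, and 5.29% of all promoters held it. The cAMP response element TGACGTCA (in 1.79% of all promoters) and the motif bound by Ebf factors (in 0.904%) were in none of the 10. Each motif was sought on both strands, which for these palindromes hold the same letters, and a match or its absence is a description of these letters only.

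To compare ligands with receptors within an array, the mean log2 value of the 5 receptors was subtracted from that of the 5 ligands. Since probe sets differ in brightness, the sign of this score has no meaning by itself, and only its change between groups does. The score was 0.65, 1.00 and 0.80 in KO closed arrays, against -0.13, -0.10 and -0.10 in KO open arrays. It was 0.59, 0.71 and 0.43 in WT closed arrays, against -0.20, -0.14 and -0.38 in WT open arrays. Closed and open arrays formed separate ranges in both genotypes. The mean was 0.82 ± 0.18 in KO closed and -0.11 ± 0.02 in KO open, and 0.58 ± 0.14 in WT closed and -0.24 ± 0.12 in WT open arrays (SD, n = 3 each).

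The score changed by 0.93 in the KO, where the ligand mean changed by 0.41 and the receptor mean, which is subtracted, by -0.52. It changed by 0.82 in the WT, where the ligand mean changed by 0.45 and the receptor mean by -0.36. No test is given for the score because its genes were chosen with their changes known. The largest contributions to the score came from Efna3, Efna4 and Efna5 among the ligands and from Epha5 and Epha7 among the receptors. Receptors that were not called moved it too, such as Epha8 (-0.34 in the KO and -0.18 in the WT) and Epha4 in the WT (0.25). Taken by the median of the 5 genes, the ligands changed by 0.42 in the KO and 0.43 in the WT, and the receptors by -0.34 in the KO and -0.18 in the WT. These medians are the changes of Efna4 and of Epha8, and neither gene was called in either genotype. Epha8 read low, with a mean of 6.24 over the 12 arrays, below the lowest array median of 7.21. Efna1 (6.80) and Efna2 (6.84) also read below it, and how much of these signals was background was not tested. The median change over all probe sets tested was 0.02 in the KO and -0.01 in the WT.

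**Figure D3:**
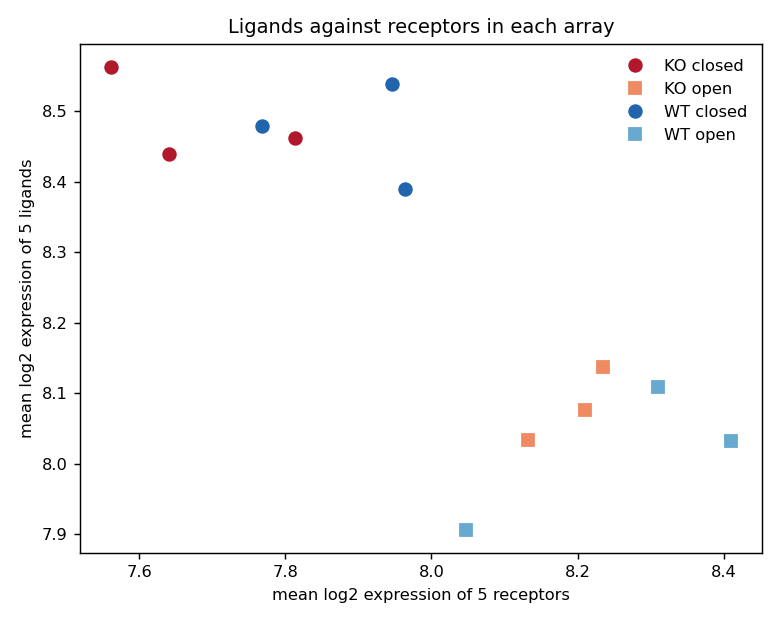
Mean log2 level of the 5 ligands (vertical axis) against the mean of the 5 receptors (horizontal axis) in each of the 12 arrays, KO and WT by color, closed sides as circles and open sides as squares. The 6 closed arrays lie at higher ligand and lower receptor means than the 6 open arrays, with group means of 8.49 and 7.67 in KO closed, 8.08 and 8.19 in KO open, 8.47 and 7.89 in WT closed, and 8.02 and 8.26 in WT open arrays.

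Whether the effect of closure differed between KO and WT mice was tested by the difference of the changes. None of the 10 genes passed, with adjusted p = 1.00 for each (limma) and 0 at an unadjusted p under 0.05. Of all probe sets tested, 0% were called in this comparison, and 1309 had an unadjusted p under 0.05. The difference, KO change minus WT change, was 0.03 for Efna5 (95% interval -0.21 to 0.28) and 0.01 for Efna3 (-0.23 to 0.25). For these ligands, differences beyond about 0.28 in either direction lay outside the interval. The receptors were bounded less tightly, with -0.17 for Epha5 (-0.53 to 0.19) and -0.20 for Epha7 (-0.67 to 0.28). Epha4 had the largest difference, -0.31 (-0.85 to 0.23).

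Within a side, KO and WT mice were not told apart at any of the 10 genes, in a comparison where 0.0245% of all probe sets were called on the closed side and 0.0215% on the open side. On the closed side the changes, KO minus WT, lay between -0.38 and 0.16. The smallest p was that of Epha4, with 7.41, 7.09 and 7.44 in KO closed arrays, against 8.04, 7.34 and 7.71 in WT closed arrays. The ranges overlapped, and the change of -0.38 (SE 0.17, 95% interval -0.76 to -0.01) had an unadjusted p = 0.0470 and an adjusted p = 0.999 (limma). The KO closed arrays of Efna3 all lay above its WT closed arrays, but by a mean of 0.07 (unadjusted p = 0.410, adjusted p = 0.999, limma). How many of all probe sets had arrays separated in this way was not counted, so this separation is no result about Efna3. On the open side the changes lay between -0.11 and 0.23. There the smallest p was that of Efna2, with 6.91, 6.76 and 7.05 in KO open arrays, against 7.03, 6.25 and 6.75 in WT open arrays (change 0.23, SE 0.18, adjusted p = 0.875, limma).

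The wider family was read as a list of its own. Of 12 further Eph and ephrin genes, 11 were measured, Epha1, Epha2, Epha6, Epha10, Ephb1, Ephb3, Ephb4, Ephb6, Efnb1, Efnb2 and Efnb3, and 0 of the 11 were called in the KO, in the WT or on average (limma). At an unadjusted p under 0.05 there was 1 in the KO, Epha1 with a change of 0.29 (adjusted p = 0.471, limma), and 0 in the WT and on average. Over all probe sets, 10.5% in the KO, 9.34% in the WT and 13.2% on average had such a p, and the share called was at most 1.66% in a direction, so a count of 0 among 11 genes is near the background. The changes lay between -0.15 and 0.29 in the KO (median 0.11) and between -0.22 and 0.28 in the WT (median 0.05). Efnb2, a transmembrane ephrin, changed by 0.09 in the KO (SE 0.10) and 0.20 in the WT (SE 0.10).

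**Figure D4:**
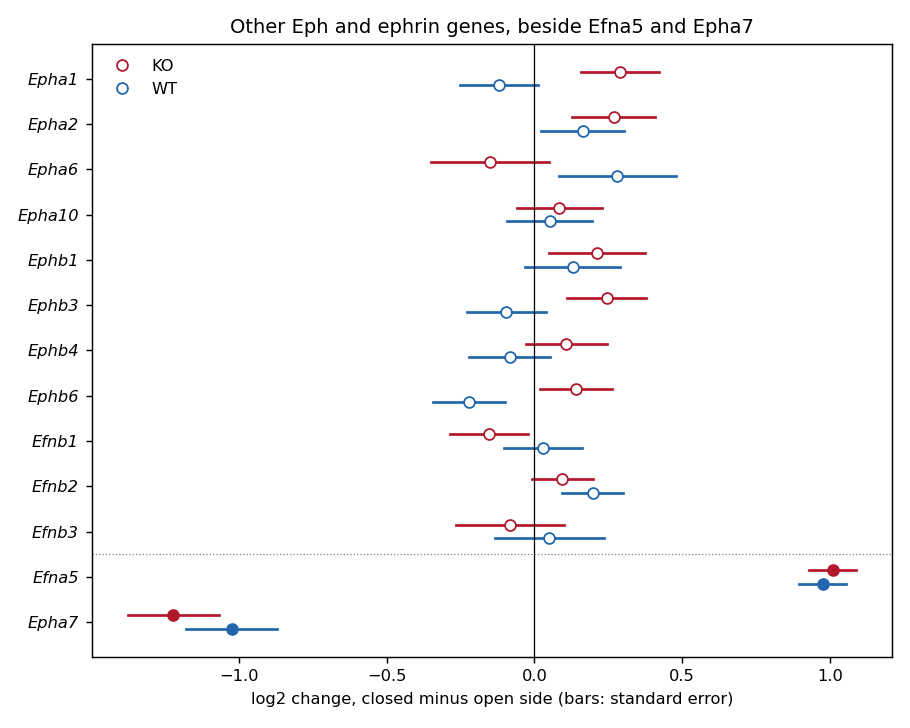
Log2 change of the closed minus the open side (horizontal axis) for the 11 other Eph and ephrin genes, with Efna5 and Epha7 for scale, KO above WT. Points are the limma estimates and bars their standard errors: the 11 genes lie between -0.22 and 0.29, whereas Efna5 lies near 1 and Epha7 near -1 or below.

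Genes that act with or downstream of Eph receptors were examined as a second list, of which 27 of 28 were measured. It held signalling proteins and adaptors that the receptors act on (such as Ngef, Chn1, Vav2 and Tiam1), regulators of actin (such as Limk1), Src-family kinases, phosphatases, the ephrin-cleaving protease Adam10, and the co-receptors Ngfr, Ntrk2 and Ret. In the KO and in the WT 0 of the 27 were called (limma), and the 3 at an unadjusted p under 0.05 in each were near the shares of all probe sets (10.5% in the KO and 9.34% in the WT), so these counts are no result about the list. Averaged over the genotypes, Limk1, a kinase that phosphorylates the actin-severing protein cofilin, was called lower, where 1.23% of all probe sets were, and 5 of the 27 had an unadjusted p under 0.05, where 13.2% of all probe sets had. Limk1 had 8.30, 8.11 and 8.31 in KO closed arrays, against 8.60, 8.60 and 8.61 in KO open arrays. WT closed arrays had 8.35, 8.34 and 8.26, against 8.44, 8.48 and 8.79 in WT open arrays. No closed array of a genotype reached its open arrays, which is a description, since the share of all probe sets separated in this way was not counted. The average change was -0.31 (SE 0.07, adjusted p = 0.0459, limma), and the call was lost when any 1 of 11 of the 12 arrays was left out. Ngef, an exchange factor that EphA receptors act on directly, had the largest positive change in the KO, 0.42 (adjusted p = 0.257, limma), beside 0.12 in the WT (adjusted p = 0.894, limma).

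Markers of olfactory neuron stages moved with the side of closure, and this stands beside the ligand and receptor changes. All 10 markers of mature olfactory sensory neurons lay above the filter. Their mean log2 level per array was 11.45 to 11.47 in KO closed, 11.14 to 11.24 in KO open, 11.36 to 11.45 in WT closed and 11.15 to 11.20 in WT open arrays. Averaged over the genotypes, 7 of the 10 were called higher, among them the transduction genes Adcy3 (0.29, adjusted p = 0.00997, limma) and Cnga2 (0.26, adjusted p = 0.0256, limma), against 1.66% of all probe sets. In the KO alone 3 were called higher, the transduction channel genes Cnga4 (0.42), Cngb1 (0.43) and Ano2 (0.38), against 0.705% of all probe sets, and in the WT alone 1 was, Cnga4 (0.37), against 0.475%. Omp, the most widely used marker of these neurons, had a mean of 12.63 and changed by 0.06 in the KO and -0.01 in the WT (adjusted p = 0.878 and 0.992, limma).

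Markers of immature olfactory sensory neurons went the other way. Their mean level over 11 of 11 genes was 9.67 to 9.75 in KO closed, 9.88 to 9.96 in KO open, 9.63 to 9.76 in WT closed and 9.94 to 9.97 in WT open arrays. Averaged over the genotypes, 7 of the 11 were called lower, against 1.23% of all probe sets, with Gng8 (-0.42) and Nhlh2 (-0.41) changed most. In the KO alone Nhlh2 was called lower (-0.47), and in the WT alone Gng8 was (-0.54), against 0.34% and 0.38% of all probe sets. The median change of the list was -0.27 in the KO and -0.28 in the WT, and that of the mature markers was 0.31 and 0.26. Of 51 markers in 11 lists of other cell types of the nose, 0 were called in the KO and 0 in the WT (limma). Over all probe sets 0.705% were called higher and 0.34% lower in the KO, and 0.475% and 0.38% in the WT. A count of 0 among 51 is therefore near the background and does not show that these cell types were unchanged. In each genotype 5 of them had an unadjusted p under 0.05, near the shares of 10.5% and 9.34% over all probe sets in KO and WT. Averaged over genotypes 1 was called, the progenitor factor Neurod1 (-0.27, adjusted p = 0.0429, limma). Over all probe sets 1.66% were called higher and 1.23% lower in that comparison, so 1 call among 51 is near the background. At an unadjusted p under 0.05 there were 12 of the 51, against 13.2% of all probe sets. These are levels of marker RNA, and whether the mix of neuron stages changed was not tested. Nor was the part of these marker changes in the changes of Efna5, Efna3, Epha5 and Epha7 tested.

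Beyond the sides, the receptors that fell varied together across the WT arrays. The deviations of Epha5 and Epha7 from their group means correlated with r of 0.89 over the 12 arrays, the highest of the 45 pairs among the 10 genes. In WT open and in WT closed arrays alike, replicate 3 had the highest and replicate 2 the lowest level of both receptors. The KO arrays were less spread and did not share an order on either side. Among the KO open arrays, the array with the lowest Epha5 (9.81) had the highest Epha7 (9.56). Efna3 deviated opposite to Epha7 (r = -0.71) and so did Efna5 (r = -0.57), but opposite deviations were also found between ligands (r = -0.58 for Efna4 and Efna5), and Efna3 and Efna5 had r of 0.01 with each other. These arrays share their RNA between genes, and the correlations are given as a description.

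The genes whose pattern over the 12 arrays was most like that of a called member were sought among 21175 other probe sets with 1 symbol. Because the arrays fall into 2 sides, any gene that differs between the closed and the open side correlates strongly here. Epha5 and Epha7 had the same nearest gene, Kirrel2, which encodes an adhesion molecule of olfactory axons (r = 0.994 and 0.993). On the closed side Kirrel2 fell by 1.29 in the KO (adjusted p = 0.00113, limma) and by 1.15 in the WT (adjusted p = 0.00278, limma). Next for Epha5 came Kcnmb3 (r = 0.992), a subunit of calcium-activated potassium channels, and Lrrc3b (r = 0.989), and for Epha7 Ptchd1 (r = 0.991) and Rasgrp4 (r = 0.989). The gene nearest to Efna5 was Rims3 (r = 0.996), of the RIM family of presynaptic proteins, which rose by 1.28 in the KO and 1.21 in the WT (adjusted p = 4.2e-05 and 7.5e-05, limma). It was followed by Etv3 (r = 0.995), an ETS-family transcription factor, and B830017H08Rik (r = 0.994). Efna3 was closest to Gramd1c (r = 0.995), Ppp3ca, the catalytic subunit of the calcium-dependent phosphatase calcineurin (r = 0.995), and the olfactory receptor gene Olfr1347 (r = 0.993). For Efna4 the nearest were Rsph14 (r = 0.956), Cd274 (r = 0.956) and Snx10 (r = 0.940), which like Efna4 did not pass in either genotype alone.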

How the data were processed

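RNA from the MOE was hybridised to 12 Affymetrix Mouse Gene ST arrays, 3 for each genotype and side. With the Affymetrix Expression Console, the authors applied sketch-quantile normalization and IterPLIER summarization, and the values they deposited are log2 intensities of each probe set on each array. Symbols are those of the platform annotation. For each gene the probe set with 1 symbol and the highest mean was used.

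Probe sets with a mean log2 of 5 or less were removed (2941). One mean per group was fitted to the remaining 32615 with limma 3.58.1 in R 4.3.3, with two-sided tests, Benjamini-Hochberg adjustment over all probe sets and a threshold of 0.05, after the fit had been tested on simulated data. Precision is limited by the number of arrays, and the median SE was 0.134 for a change between sides and 0.189 for the difference between genotypes. Plots used matplotlib 3.10.9 under Python 3.11.15.

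The members, gene lists and tests were chosen with earlier results of these data known. The genes named are the 10 members, called members of the lists (at most 6 per list), the member with the smallest p between genotypes on each side, the 3 genes most like each member called on average, and H2be. Other genes given with values, Epha1, Efnb2, Ngef, the neuron markers and the neighbours on chromosome 3, were chosen after their values were seen. Filters, scalings, fits and the array left out were varied. Ephb2 was not matched and not analysed here.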

Additional observations from a re-analysis of the deposited data

How the results depend on the processing

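For the 10 genes, 37 results were recomputed under 715 alternatives, of which 671 kept direction and side of the threshold, 4 no longer passed, 2 newly passed and 38 changed sign, all of the last for changes that were not called. With the WT arrays fitted alone, 1 gene was called in the WT, Efna5, in place of 4. Epha7 in the WT was the call lost when an array was left out, without WT open replicate 1. Efna4 passed in the WT when probe sets with a mean above 7 were tested (adjusted p = 0.0487, limma) and in the KO with array weights (adjusted p = 0.0434, limma). As the difference of the ligand and receptor medians, which are the changes of Efna4 and Epha8, the score changed by 0.77 in the KO and 0.61 in the WT. These stand in place of 0.93 and 0.82. Limk1 lost its call under 13 of 19 alternatives (adjusted p 0.0101 to 0.118, limma).

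Epha3 in the WT changed by 0.0117 with quantile normalization and by 0.0161 with arrays centred on their median. The genotype difference was -0.0349 for Efna3 and -0.0091 for Efna5 with centred arrays, and -0.0039 for Efna5 and 0.0668 for Efna4 with array weights. Leaving out 1 array at a time gave, in the KO, -0.187 to 0.0618 for Efna1, -0.038 to 0.174 for Efna2, -0.0774 to 0.220 for Epha3 and -0.160 to 0.052 for Epha4. In the WT it gave -0.0109 to 0.217 for Efna1, -0.0864 to 0.303 for Efna2, -0.0947 to 0.0777 for Epha3 and -0.304 to 0.002 for Epha8. For the genotype difference it gave -0.244 to 0.146 for Efna2, -0.0314 to 0.0461 for Efna3, -0.120 to 0.0551 for Efna4 and -0.077 to 0.220 for Epha3.

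The labels do not say whether same-numbered closed and open samples came from the same mice, so the main fit did not treat the numbers as pairs. Same-numbered samples had deviations that correlated at 0.053, 0.233 and 0.026 in the KO and at -0.009, 0.169 and 0.019 in the WT. The highest correlation with another number was 0.127, -0.057 and -0.002 in the KO and 0.074, -0.064 and 0.066 in the WT. With so few samples these values cannot settle whether the samples were paired. With the replicate number as a block, the same 4 genes were called in the KO and in the WT and the same 5 on average, while the probe sets called numbered 116 in the KO in place of 341, 97 in the WT in place of 279, and 647 on average in place of 945. Other settings gave 116 to 588 probe sets in the KO, 36 to 523 in the WT and 590 to 1338 on average. The mean of several probe sets per gene was not run, since each gene had 1, and the filter above 7 gave no value for Efna1, Efna2 and Epha8. The SE of a change differed between genes, from 0.08 for Efna3 to 0.20 for Epha8, so the size of change that could pass did too.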

Other observations

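Efna1, Efna3 and Efna4 lie next to each other on mouse chromosome 3, and their protein-coding neighbours were read in the same arrays. In the order Krtcap2, Dpm3, Slc50a1, Efna1, Efna3, Efna4, Adam15, Dcst1 and Dcst2, the call was made for Efna3 in both genotypes and on average, and for Efna4 on average. Efna3 was higher on the closed side by an average log2 change of 0.63 and Efna4 by 0.43, whereas Efna1, on the other side of Efna3, changed by 0.01 (adjusted p = 0.989, limma). Adam15, a membrane metalloprotease gene beyond Efna4, changed by 0.39 in the KO (adjusted p = 0.190, limma) and 0.11 in the WT (adjusted p = 0.887, limma). The other 5 neighbours changed by 0.08 to 0.19 on average, and none passed. Whether the change of Efna1 differed from those of Efna3 and Efna4 was not tested.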
